A study of Mus musculus with 30 samples.

Results

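Ribosomal protein genes were examined in mouse embryonic stem (ES) cells and in cells of early neural aggregates. They were taken by symbol: the genes named Rpl or Rps with a number, together with Rplp0, Rplp1, Rplp2 and Rpsa, without the Rps6k kinases, as far as a probe set of the arrays named that gene alone. This gave 44 genes with 70 probe sets, of 15964 genes that the arrays named alone, 23 of the large subunit and 21 of the small subunit. A filter on low signal left 41 of them (22 and 19), of 12941 genes that passed it. Rpl32, Rps15 and Rps15a did not pass, with intensities between 9.11 and 262 over the 10 samples, and no difference is given for them.

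Cytoplasmic ribosomes carry their proteins in a small subunit, which reads the messenger RNA, and a large subunit, which joins amino acids and holds the exit tunnel of the new chain. Most of these proteins are needed in equal numbers, and their messenger RNAs usually begin with a run of pyrimidines (the TOP motif) through which growth signals set their translation together. A few have a second gene of nearly the same protein, a paralog, several of which are best known from male germ cells, where the X chromosome with the parent gene is silenced. Stem cells are known for strong transcription of ribosome assembly genes, many of them under the control of Myc.

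All samples came from Sox1-GFP ES cells (129 derived), in which green fluorescent protein reports Sox1, a neuroectodermal gene. The aggregate samples were grown as SFEB, floating aggregates in serum-free medium, and the ES samples are not labelled so. Culture and cell state therefore cannot be told apart in the comparisons with ES cells. PolyA RNA of cells sorted by flow cytometry was measured on Affymetrix U74 version 2 arrays, a set of 3 chips. The ES cells (3 samples) had been sorted for E-cadherin. The aggregates gave 1 sample of each kind: day 1 cells without a sort label, E-cadherin-positive and E-cadherin-negative cells of day 2, Sox1-negative cells of day 3, and Sox1-positive cells of day 3, day 4 and day 5. E-cadherin served as a marker of undifferentiated cells and Sox1 as one of neuroectoderm. No group carried another genotype or an added agent. The Sox1-positive samples of the 3 days were treated as a group of 3 whose spread includes any change with day, and the other 4 aggregate samples as a group of 4 that differ in day and sort. Only ES cells had replicates, and no label says that these were separate cultures, so their spread may be technical. In the comparisons with ES cells the p-values rest on that spread together with the spread of single aggregate samples that differ in day or sort. In the comparisons among aggregate samples no ES sample entered, and the p-values rest on the spread of those single samples.

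The deposited intensities were linear and already scaled: the 2% trimmed mean of each of the 30 arrays lay between 500.108 and 500.281. Their medians were 177 to 278, and with 7 of 8 groups measured on 1 array a chip the precision is limited by that number. Markers followed the sort labels: 11 of 12 pluripotency markers fell and 12 of 12 neural progenitor markers rose in Sox1-positive against ES cells (limma, adjusted p under 0.05). Of the mesoderm, endoderm, fibroblast and blood markers (5, 8, 6 and 3 tested), 0 were called, and 3 of 8 neuronal markers rose. The lowest log2 difference of a fibroblast marker was -2.76. The summed intensity of the fibroblast markers was 2124, 4880 and 4282 in ES 1, ES 2 and ES 3, and 1563 to 2977 in the aggregate samples. On chip A the ratio of the 3' to the 5' probe set of beta-actin, a measure of RNA length, was 1.70 in ES 3, 1.34 at day 5, 1.33 in the day 2 E-cadherin-negative cells and between 0.939 and 1.15 in the other 7 samples. The same ratio for Gapdh did not set ES 3 apart. It was 0.866 there and ran from 0.792 in ES 1 to 1.03 in the day 2 E-cadherin-negative cells.

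Between ES cells and Sox1-positive neuroectoderm, 4 of the 41 ribosomal protein genes changed. Rpl39l, Rpl10l and Rps4l, which are paralogs, fell: the ratio of mean intensities in ES to Sox1-positive cells was 14.3, 9.15 and 2.87, the first against readings under the filter on low signal. Rpl22, a protein of the large subunit that also binds RNA outside the ribosome, rose 2.82-fold. These 9.76% of the members stood beside 12.6% of all 12941 genes called in this comparison (6.4% higher and 6.17% lower). The median log2 difference was -0.05 over the members and -0.01 over all genes. All differences are on the scale of log2(intensity + 16), which understates changes of dim genes, and calls are limma adjusted p under 0.05 over the probe sets of all 3 chips.

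Rpl39l replaces Rpl39, a small protein of the exit tunnel, in some ribosomes. Its intensity was 757, 1190 and 658 in the 3 ES samples, 365 at day 1, 440 in the E-cadherin-positive and 154 in the E-cadherin-negative cells of day 2, 414 in the Sox1-negative cells of day 3, and 66.4, 68.2 and 47.1 in the Sox1-positive cells of days 3, 4 and 5. The Sox1-positive samples were all lower than every other sample, and all aggregate samples were lower than every ES sample. The log2 difference between Sox1-positive and ES cells was -3.50 (SE 0.25, limma adjusted p = 0.00032), and it stayed under the threshold in all 18 alternatives tried (highest adjusted p 0.00233). The 3 Sox1-positive readings of Rpl39l lay below the filter level of 78.6 on that chip, and the ES mean was 11 times that level. The log2 difference of Rpl39l was -3.79 with a pseudocount of 1 and -2.87 with one of 64, so the size of the fall is not well fixed.

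Rpl10l is an intronless copy of the X-linked Rpl10, which sits close to the catalytic centre of the large subunit, and it is needed in male meiosis. It read 4093, 8106 and 4294 in the ES samples, 3573 at day 1, 2787 and 1084 in the E-cadherin-positive and E-cadherin-negative cells of day 2, 2520 in the Sox1-negative cells of day 3, and 808, 576 and 419 in the Sox1-positive cells of days 3, 4 and 5. Again no aggregate sample reached the lowest ES sample, and the Sox1-positive samples lay below all others. The log2 difference was -3.13 (SE 0.38, limma adjusted p = 0.00398), with 0.0227 the highest adjusted p in 18 alternatives. It has 1 probe set on these chips, and Rpl10 itself was not analysed here.

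Rps4l, an autosomal relative of the X-linked small-subunit gene Rps4x, had 2 probe sets that differed. The brighter (98149_s_at) read 5768, 8003 and 5238 in ES cells, 5270 at day 1, 6416 and 3179 in the E-cadherin-positive and E-cadherin-negative cells of day 2, 6093 in the Sox1-negative cells of day 3, and 2948, 2308 and 1373 in the Sox1-positive cells of days 3, 4 and 5. So the E-cadherin-negative and Sox1-positive cells were below the ES range, while the E-cadherin-positive, Sox1-negative and day 1 cells lay within it. Its log2 difference was -1.56 (SE 0.30, limma adjusted p = 0.0164). The suffix of its identifier marks probes shared with other transcripts, so part of this signal could be another gene's. The other probe set (98148_at), with intensities of 71.7 to 167, showed 0.06 (limma adjusted p = 0.928). The call was also lost with the mean of both sets (-0.75, limma adjusted p = 0.0927), without ES 2 (0.072) and without day 4 (0.0515).

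Rpl22 moved the other way in its brightest probe set (92857_at), with 839, 588 and 654 in ES cells, 901 at day 1, 1315 and 1665 in the E-cadherin-positive and E-cadherin-negative cells of day 2, 1083 in the Sox1-negative cells of day 3, and 1646, 1508 and 2709 in the Sox1-positive cells of days 3, 4 and 5. Every aggregate sample exceeded every ES sample. The log2 difference of Sox1-positive from ES cells was 1.44 (SE 0.26, limma adjusted p = 0.0127). The 2 other Rpl22 probe sets gave 0.60 and -0.35 (limma adjusted p = 0.408 and 0.560). The call was lost with the mean of the 3 sets (0.56, limma adjusted p = 0.168) and without ES 2 (1.33, limma adjusted p = 0.0602).

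**Figure D1:**
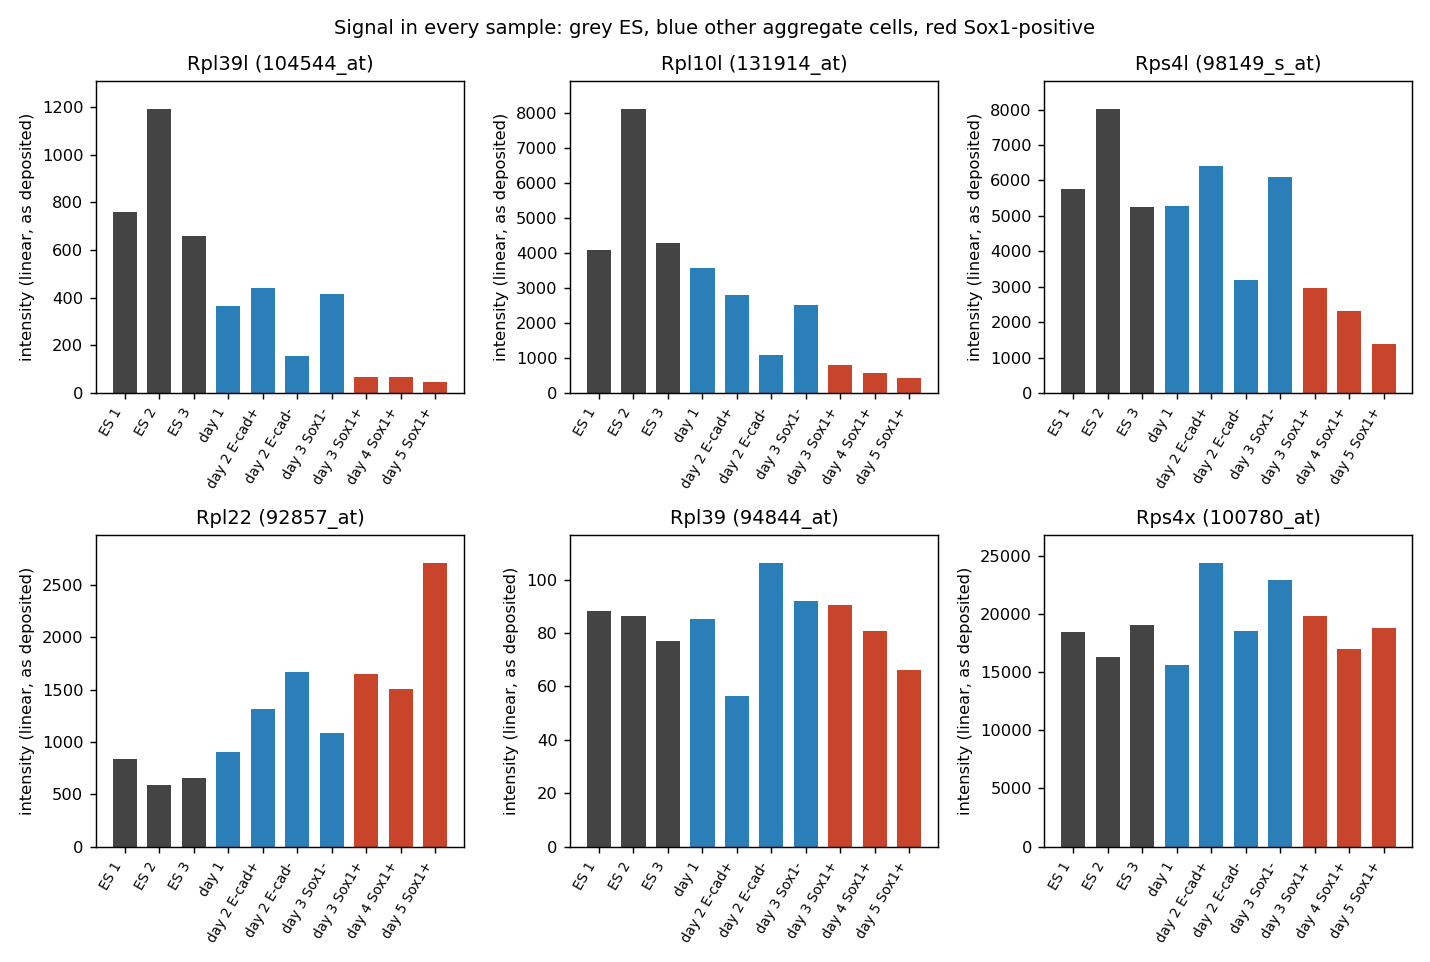
Bars give the deposited linear intensity of the 4 changed genes and of Rpl39 and Rps4x, partners of Rpl39l and Rps4l, in each of the 10 samples (grey ES, blue other aggregate cells, red Sox1-positive; each axis starts at 0 and has its own scale). Rpl39l, Rpl10l and Rps4l are lowest in the 3 Sox1-positive samples, while Rps4x lies between 15639 and 24377 in all samples.

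The pluripotency markers moved with the 3 paralogs that fell. The summed intensity of the 12 markers was 48364 to 56723 in ES cells, 39947 at day 1, 44444 and 15595 in the E-cadherin-positive and E-cadherin-negative cells of day 2, 39023 in the Sox1-negative cells of day 3, and 2060 to 9120 in the Sox1-positive samples. The 12 neural progenitor markers summed to 3669 to 4230 in ES cells, 19486 in the E-cadherin-negative cells of day 2 and 35943 to 36761 in the Sox1-positive samples. The part that the mixture of cell states has in the paralogs' differences was not tested. In bulk samples fewer cells of a type and less RNA per cell cannot be told apart.

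The parent genes of these paralogs gave small differences. Rpl39 (intensity 77.2 to 88.4 in ES and 66.2 to 90.5 in Sox1-positive cells) differed by -0.08 (95% interval -0.48 to 0.33, limma adjusted p = 0.841), with a probe set close to the filter of 78.6 on its chip. Rps4x read 16290 to 19049 in ES and 16988 to 19795 in Sox1-positive cells, with overlapping ranges and a difference of 0.05 (95% interval -0.34 to 0.43, limma adjusted p = 0.906). Rpl7 differed by 0.01 and Rps27, a zinc finger protein of the small subunit, by -0.18 (limma adjusted p = 0.978 and 0.604).

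The other 3 paralogs measured did not pass the test. Rpl7l1, a relative of Rpl7 with a role in ribosome assembly, read 622, 667 and 593 in ES cells, 573 at day 1, 439 and 436 in the E-cadherin-positive and E-cadherin-negative cells of day 2, 498 in the Sox1-negative cells of day 3 and 497, 469 and 396 in Sox1-positive cells. All 7 aggregate samples were thus below the ES range, and the difference of Sox1-positive from ES cells was -0.46 (SE 0.17, limma adjusted p = 0.142). Rpl3l, a paralog of striated muscle, differed by -0.41 and Rps27l, a p53 target, by 0.41 (limma adjusted p = 0.531 and 0.691), with overlapping samples in both. Rpl22l1, the paralog of Rpl22, was not analysed here.

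RefSeq start regions (build GRCm38.p6) were matched by symbol for 37 of the 44 genes, and a few are shown to set paralogs beside a parent gene and beside core members. Rpl38 and Rps10 were picked because they hold both motifs marked below, and Rps18 as a core member with neither. Each runs from 50 bases before to 20 after the start of transcription, 5' to 3' on the gene's strand. Capitals mark CTTTC, a pyrimidine run of the TOP kind (sense strand), and CCGGAA or its complement TTCCGG, the core of ETS factor sites. For Rpl39l the window is chr16:10170178-10170247 (plus strand), for Rpl39 chrX:37085203-37085272 (minus), for Rpl10l chr12:66284382-66284451 (minus), for Rps4x chrX:102189372-102189441 (minus), for the first of the 2 Rpl22 starts chr4:152325676-152325745 (plus), for Rpl38 chr11:114668530-114668599 (plus), for Rps10 chr17:27635225-27635294 (minus) and for Rps18 chr17:33955646-33955715 (minus).
Rpl39l: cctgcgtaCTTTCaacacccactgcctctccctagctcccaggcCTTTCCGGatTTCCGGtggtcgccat
Rpl39: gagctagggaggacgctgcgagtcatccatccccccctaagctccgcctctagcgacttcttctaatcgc
Rpl10l: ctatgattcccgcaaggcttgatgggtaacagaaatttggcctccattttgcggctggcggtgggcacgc
Rps4x: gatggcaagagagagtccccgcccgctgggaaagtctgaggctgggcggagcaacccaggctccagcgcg
Rpl22: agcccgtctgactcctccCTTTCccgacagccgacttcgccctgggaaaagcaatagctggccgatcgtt
Rpl38: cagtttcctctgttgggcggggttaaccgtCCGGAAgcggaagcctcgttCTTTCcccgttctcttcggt
Rps10: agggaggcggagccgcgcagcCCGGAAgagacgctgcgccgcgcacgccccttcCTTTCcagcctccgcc
Rps18: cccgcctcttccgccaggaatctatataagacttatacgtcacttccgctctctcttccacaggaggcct

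In the Rpl39l window a CTTTC and a TTCCGG overlap. Of the 37 members, 13 (35.1%) held CTTTC in this window, against 10.9% of 27025 genes. CCGGAA on either strand was in 13 members (35.1%), against 7.62% of genes. Both were in 5 members (Rpl39l, Rpl38, Rps10, Rps19 and Rps27) and neither was in 16, among them Rpl10l, Rpl39, Rps4x, Rps18, Rpl41 and Rps28. The second Rpl22 start held neither. Other motifs were searched and are not marked. TATAAA on the sense strand was in 0 of the 37 windows and in 3.56% of all genes. GGGCGG on either strand was in 12 members (32.4%, against 21.3% of genes), and AAGATGG in 2 (5.41%, against 1.55%). A match says only that these letters are present, and the lack of one does not show that a pyrimidine run is absent. The Rps18 window, counted with neither, holds the run ctctcttcc, which CTTTC does not match.

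Leaving the paralogs aside, the 35 other members that passed the filter were nearly level between ES and Sox1-positive cells. Their median log2 difference was -0.04, 30 of the 35 differed by less than 0.25, and 33 by less than 0.5. The 2 beyond 0.5 were Rpl22 and Rps13. The standard error of a difference ran from 0.16 to 0.50 with a median of 0.20, and the 95% interval lay within -1 to 1 for 32 genes but within -0.5 to 0.5 for only 13. A change in level by a small factor was therefore not detectable for most of them with these arrays.

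**Figure D2:**
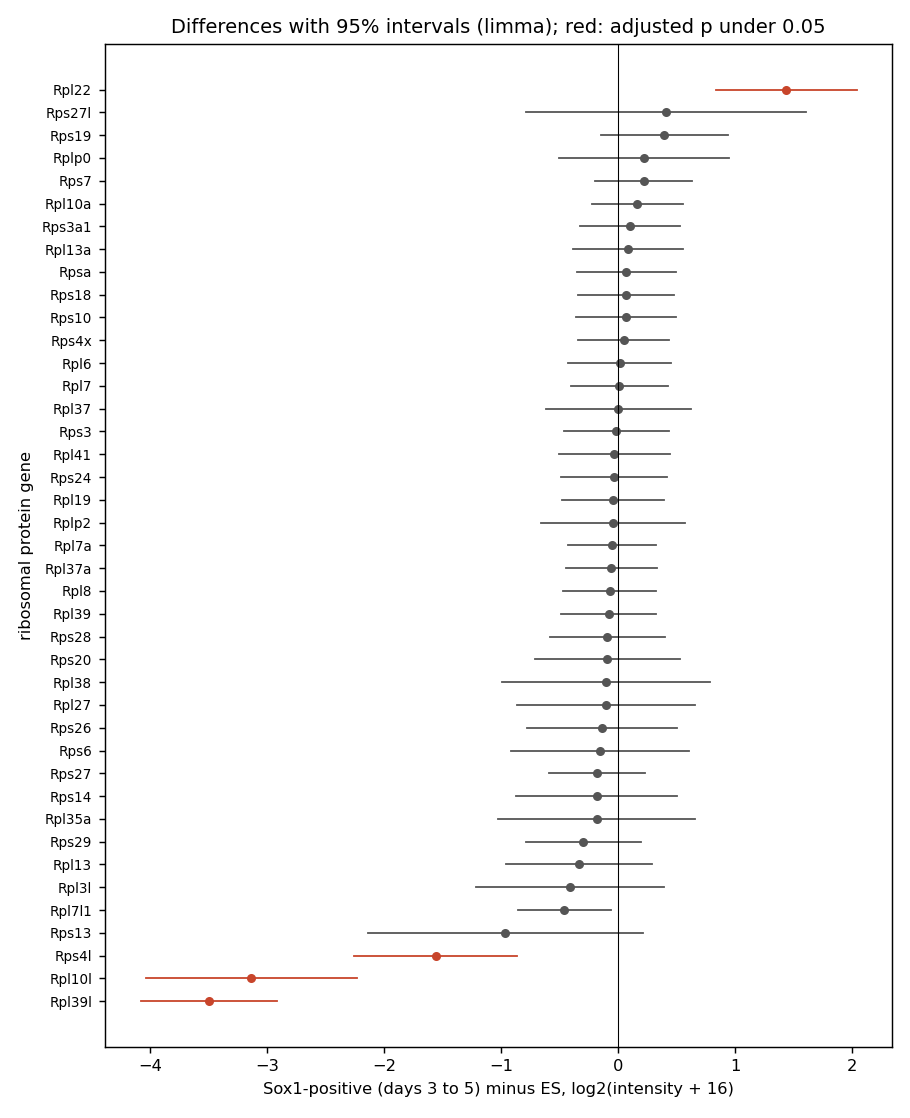
Points give the log2 difference of Sox1-positive (n = 3) from ES cells (n = 3) for each of the 41 members, with its 95% limma interval, sorted by size; red marks adjusted p under 0.05. Rpl39l, Rpl10l and Rps4l stand at the low end and Rpl22 at the high end, and the intervals of all other genes but Rpl7l1 cross 0.

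In the small subunit 1 of 19 members fell (Rps4l, 5.26%, against 6.17% of all genes) and 0 rose, where 6.4% of all genes did. The median difference was -0.03. Rps6, whose phosphorylation follows growth signals, differed by -0.15 (limma adjusted p = 0.829) and Rpsa, a protein related to the laminin receptor, by 0.07 (0.863). The only Rps6 probe set read 68.1 to 151 over the 10 samples, around the filter level of 102 on its chip. Rps19, the gene most often mutated in Diamond-Blackfan anaemia, read 11957, 7574 and 8328 in ES cells, 6502 at day 1, 9393 and 7350 in the E-cadherin-positive and E-cadherin-negative cells of day 2, 16580 in the Sox1-negative cells of day 3, and 14404, 12154 and 9858 in Sox1-positive cells. The ES and Sox1-positive ranges overlapped, and the difference was 0.40 (SE 0.24, limma adjusted p = 0.354). Of 9 genes listed for that anaemia 6 were tested and 0 changed (12.6% of all genes did), with differences from -0.18 to 0.40.

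Rps13, of the small subunit, read 430, 712 and 485 in ES cells and 116, 337 and 454 in the Sox1-positive cells of days 3, 4 and 5. The value was lowest at day 3, that of day 4 was also below every ES sample, and that of day 5 lay within the ES range. The difference of -0.96 (SE 0.50) had a limma adjusted p of 0.294. The second Rps13 probe set gave -0.25 (limma adjusted p = 0.632).

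In the large subunit 2 of 22 members fell (9.09%, against 6.17% of all genes) and 1 rose, where 6.4% of all genes did. The median was -0.05. Of the P stalk, which recruits elongation factors, Rplp0 differed by 0.22 and Rplp2 by -0.04 (limma adjusted p = 0.730 and 0.950). A second Rplp0 probe set gave -0.02 (limma adjusted p = 0.964). Of the 4 measured proteins near the mouth of the exit tunnel, Rpl19, Rpl22, Rpl37 and Rpl39, only Rpl22 changed. Rpl38, needed for translation of Hox messenger RNAs in the embryo, differed by -0.10 (limma adjusted p = 0.909), but its probe set read 18 in the Sox1-negative cells of day 3 against 146 to 330 in the other 9 samples. Rplp1, Rps27a, Rpl5 and Rpl11, the last 2 being the partners of 5S RNA, were not analysed here.

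For 6 members the probe sets of a gene differed most. The gap between the highest and lowest log2 difference of Sox1-positive from ES cells was 1.79 for Rpl22, 1.62 for Rps4l, 0.83 for Rps29, 0.72 for Rps13, 0.55 for Rps14 and 0.45 for Rps3. Ribosomal protein genes have many processed pseudogenes and near-identical copies, so the signal of any member here may include such transcripts.

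Only 6 members had all Sox1-positive samples outside the ES range: Rpl22 above it, and Rpl39l, Rpl10l, Rps4l, Rpl7l1 and Rpl13 below it. That was 14.6% of the members, and 35.1% of all genes tested had such a separation. At an unadjusted p under 0.05 there were 5 members (12.2%), against 27.8% of all genes. Over all 10 samples the range of a member's log2 values had a median of 0.83, and it was under 1 for 29 of 41 members (70.7%). The same figures over all genes were 1.14 and 40.5%. Brightness moved with this: the 24 members with a mean log2 value of at least 12 had a median range of 0.77 (22 under 1, 91.7%), and the 556 other genes as bright had 0.84 (63.7% under 1), a split chosen after the values were seen.

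The 4 other aggregate samples were also compared with ES cells. The median log2 difference was 0.14 over the members and 0.01 over all genes. Of the 41 members 0 were called (limma), and of all genes 0.0309% were. At an unadjusted p under 0.05 there were 3 members, and 10% of all genes. The largest differences were -1.35 for Rpl39l, -1.19 for Rpl10l and -0.39 for Rps13, and 0.80 for Rpl22, 0.58 for Rpl35a and 0.47 for Rpl27 (limma adjusted p = 0.284, 0.430, 0.660, 0.319, 0.573 and 0.550). The other Rpl22 probe sets gave -0.64 and 0.05 (limma adjusted p = 0.786 and 0.972). In ES cells Rpl35a read 35.5 to 125 and Rpl27 123 to 133, near the filter levels of their chips (78.6 and 117). All 4 samples lay below the ES range for Rpl39l, Rpl10l and Rpl7l1 and above it for Rpl22 and Rpl27. These 5 members are 12.2%, and 11.2% of all genes separated so.

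Between Sox1-positive cells and the other aggregate cells, Rpl39l was called lower, at -2.14 (SE 0.33, limma adjusted p = 0.0307). It was 1 of 41 members, and 1.75% of all genes were called. At an unadjusted p under 0.05 there were 5 members (12.2%, against 22% of all genes). The call was lost when any of the samples day 1, day 2 E-cadherin-positive, day 3 Sox1-negative, day 3, day 4 or day 5 Sox1-positive was left out (limma adjusted p 0.0651 to 0.115), and without the day 2 E-cadherin-negative cells 3 members were called. Rpl10l differed by -1.95 and Rps4l by -1.26 (limma adjusted p = 0.0675 and 0.079). This comparison shares the Sox1-positive samples with the one against ES cells.

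Per day of culture in the 7 aggregate samples, 0 members were called in limma (0.0155% of all genes were), with 6 members at an unadjusted p under 0.05 (14.6%, against 18.6% of all genes). The steepest slopes were -0.75 a day for Rpl10l, -0.70 for Rpl39l and -0.48 for Rps4l, and 0.29 for Rpl22, 0.19 for Rps19 and 0.11 for Rplp0 (limma adjusted p = 0.152, 0.184, 0.171, 0.205, 0.467 and 0.663). Other probe sets past the filter gave -0.02 for Rplp0, 0.47 and -0.16 for Rpl22 and -0.04 for Rps4l (limma adjusted p = 0.929, 0.418, 0.598 and 0.845). Day and the Sox1 sort go together in these samples. With the Sox1 sort as a covariate the slopes were -0.36 for Rpl10l, -0.05 for Rpl39l, -0.22 for Rps4l and 0.24 for Rpl22 (limma adjusted p = 0.995, 0.996, 0.995 and 0.995).

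The sorts of a day had 1 sample on each side and no test. In the E-cadherin-negative against the E-cadherin-positive cells of day 2, the log2 difference was -1.42 for Rpl39l, -1.35 for Rpl10l, -1.08 for Rpl3l and -1.01 for Rps4l. Rpl37 was higher by 1.55, with a reading of 114 in the E-cadherin-positive cells against 298 to 560 in the other samples, and Rpl39 and Rpl13 were higher by 0.76 and 0.38. In all, 9 members were lower by 0.5 or more (22%, against 15.5% of all genes) and 2 were higher (4.88%, against 19.2%).

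At day 3 the Sox1-positive cells had less Rpl39l, Rps13 and Rpl10l than the Sox1-negative cells, with log2 differences of -2.38, -1.95 and -1.62. The second Rps13 probe set went the other way, reading 69.1 in the Sox1-negative and 118 in the Sox1-positive cells. The log2 difference of Rps4l was -1.04. Rpl38, Rpl22 and Rpl27 were higher by 2.47, 0.60 and 0.54. The other Rpl22 probe sets read 267 and 159 in the Sox1-negative cells and 350 and 125 in the Sox1-positive cells. There were 8 members lower by 0.5 or more (19.5%, against 19% of all genes) and 3 higher (7.32%, against 17.9%). In the probe set used for each, Rpl39l, Rpl10l, Rps4l and Rpl3l (-1.23 at day 3) were lower by 0.5 or more in the more neural sort. This held on both days, with 1 sample a side. The second probe sets of Rpl3l and Rps4l did not repeat it. That of Rpl3l read 286 and 217 in the E-cadherin-positive and E-cadherin-negative cells of day 2. In the Sox1-negative and Sox1-positive cells of day 3 it read 74.2 and 272. That of Rps4l read 140 and 157 at day 2, and 164 and 137 at day 3, in the same order. Most members were lower too, by a smaller amount. At day 2, 32 of 41 were lower by any amount (78%, against 48% of all genes), and 32 at day 3 (78%, against 51.7%). The medians were -0.31 and -0.15, against 0.03 and -0.02 over all genes. After quantile normalization the medians of the members were -0.04 and 0.

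Set against the mean of the ES samples, the members as a group stood higher in the E-cadherin-positive cells of day 2. Their median log2 difference was 0.42 there, with 32 of 41 above the ES mean (78%, against 50.3% of all genes) and 23 above the ES range (56.1%, against 27.3%). In the Sox1-negative cells of day 3 it was 0.23, with 33 above the ES mean (80.5%, against 51.4%) and 23 above the ES range (56.1%, against 27.4%). The medians were -0.08 at day 1, 0.08 in the E-cadherin-negative cells of day 2, and 0.08, -0.12 and -0.10 in the Sox1-positive cells of days 3, 4 and 5, and -0.08, -0.02 and 0.06 in the ES samples themselves. The median over all genes lay between -0.01 and 0.04 in every sample.

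Rps18 is an example, with 17327, 18221 and 20749 in ES cells, 28663 in the E-cadherin-positive cells of day 2, 24901 in the Sox1-negative cells of day 3, 23233 in the E-cadherin-negative cells of day 2 and 22683 in the Sox1-positive cells of day 3. These 4 samples lay above all ES samples. The 3 others read 16817 to 18656. Rps18 was picked after its values were seen.

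Counted past 0.5 on the log2 scale, 13 members were higher in the E-cadherin-positive cells of day 2 (31.7%, against 13% of all genes) and 4 lower (9.76%, against 13.3%). In the Sox1-negative cells of day 3 these were 6 (14.6%, against 12.7%) and 3 (7.32%, against 11.7%), and at day 1 they were 6 (14.6%, against 12.2%) and 2 (4.88%, against 11.8%). The E-cadherin-negative cells of day 2 had 2 higher (4.88%, against 20.1%) and 7 lower (17.1%, against 16.5%). Among these 8 counts the excess over all genes was largest for the rises in the E-cadherin-positive cells.

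In the Sox1-positive cells fewer members than genes in general passed 0.5 in either direction. At day 3 there were 3 higher (7.32%, against 19%) and 5 lower (12.2%, against 19.6%), at day 4 3 higher (7.32%, against 20.2%) and 5 lower (12.2%, against 19.4%), and at day 5 2 higher (4.88%, against 21.6%) and 6 lower (14.6%, against 21.3%).

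The shift of the group depended on the scaling. Dividing by the 75th percentile of each array gave medians of 0.45 in the E-cadherin-positive and 0.25 in the Sox1-negative cells, and centring on array medians gave 0.39 and 0.17. Of the scalings tried only quantile normalization brought both near 0. It gives values by rank within an array, and Rpl41 had the same normalised value in 9 of the 10 samples. After quantile normalization within each chip the median of the E-cadherin-positive cells was 0.05, that of the Sox1-negative cells was 0.04, and those of the 7 aggregate samples lay between -0.06 and 0.05. In the E-cadherin-positive cells 23 members were then above the ES mean (56.1%, against 49.3% of all genes) and 14 above the ES range (34.1%, against 26.8%), and in the Sox1-negative cells 12 were above the range (29.3%, against 25.6%). With the deposited scaling, the 24 members with a mean log2 value of at least 12 had medians of 0.45 and 0.35 in these 2 sorts, and the 556 other genes as bright had 0.05 and 0.02; after quantile normalization the members had 0.05 and 0.09. This split by signal was chosen after the values were seen. Without ES 3, the sample with the highest actin ratio, the median of the Sox1-negative cells was 0.36 and that of the E-cadherin-positive cells 0.32.

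**Figure D3:**
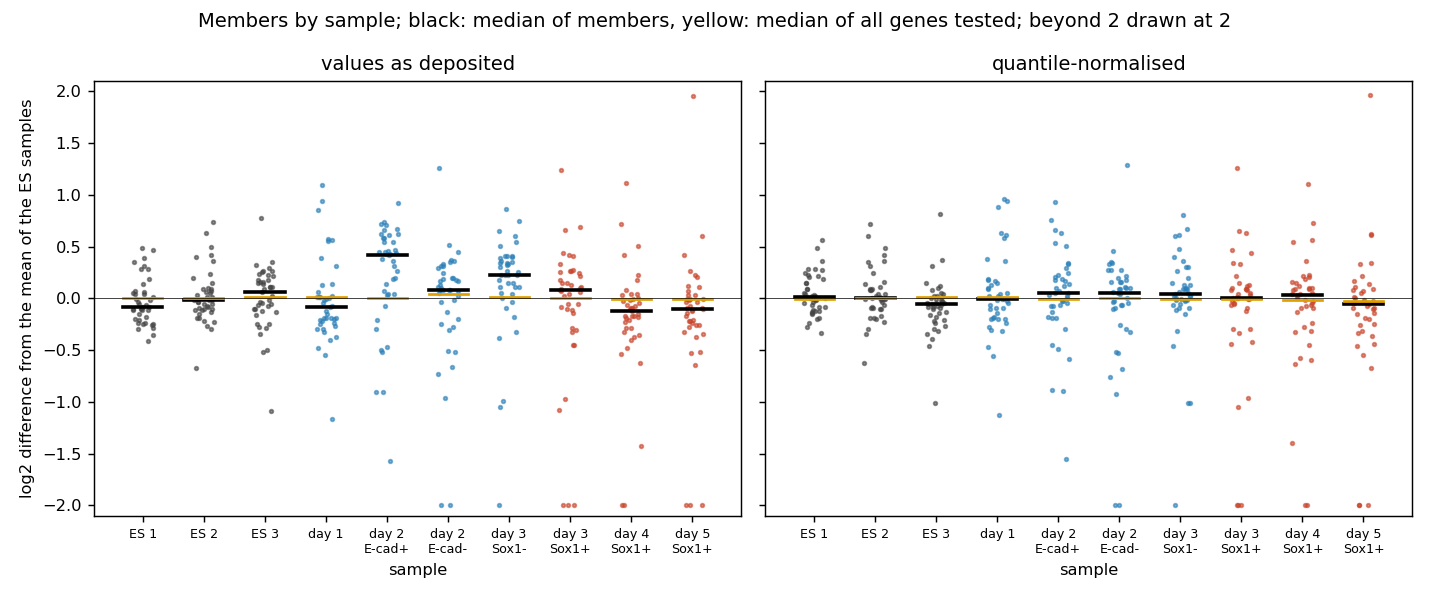
Each point is 1 of the 41 members in 1 sample, as its log2 difference from the mean of the 3 ES samples (differences beyond 2 are drawn at 2); black lines are the medians of the members and yellow lines those of all 12941 genes. On the left (values as deposited) the E-cadherin-positive cells of day 2 stand at 0.42 and the Sox1-negative cells of day 3 at 0.23; on the right (quantile-normalised) both are within 0.05 of 0.

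In single samples the members farthest from the ES mean were few. Rpl39l, Rpl10l and Rps4l were the 3 lowest in the E-cadherin-negative cells of day 2 (-2.33, -2.25 and -0.97), at day 4 (-3.35, -3.15 and -1.43) and at day 5 (-3.76, -3.59 and -2.17). The second Rps4l probe set read 157, 104 and 114 in these samples, within its ES range of 71.7 to 167. At day 3 in Sox1-positive cells the lowest were Rpl39l, Rpl10l and Rps13 (-3.38, -2.67 and -2.04). The second Rps13 probe set read 118 there, within its ES range of 104 to 122. The lowest were Rpl39l, Rpl10l and Rps19 at day 1 (-1.17, -0.55 and -0.48), Rpl37, Rpl39l and Rpl10l in the E-cadherin-positive cells of day 2 (-1.57, -0.91 and -0.90), and Rpl38, Rpl10l and Rpl39l in the Sox1-negative cells of day 3 (-2.77, -1.05 and -0.99). So Rpl39l and Rpl10l were among the 3 lowest members in all 7 aggregate samples.

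At the upper end Rpl22, in its brightest probe set, was the highest member in the E-cadherin-positive (0.92) and E-cadherin-negative (1.26) cells of day 2 and in the Sox1-positive cells of days 3, 4 and 5 (1.24, 1.12 and 1.96). In the same order, 170901_i_at of Rpl22 read 30.2, 304, 350, 356 and 525, with an ES range of 153 to 406. The third set (92856_at) read 84.6, 65.8, 125, 44.1 and 73.8, with an ES range of 87.5 to 126. At day 1 the highest were Rpl27, Rpl35a and Rps27l (1.09, 0.94 and 0.85), and in the Sox1-negative cells of day 3 Rps19, Rplp2 and Rpl22 (0.86, 0.75 and 0.65). As given above, Rpl27 and Rpl35a read near the filter levels of their chips in ES cells. After Rpl22 came Rpl35a and Rpl19 in the E-cadherin-positive cells (0.74 and 0.72), Rpl35a and Rpl27 in the E-cadherin-negative cells (0.51 and 0.45), and Rpl27 and Rps19 (0.69 and 0.66), Rps27l and Rpl38 (0.71 and 0.51) and Rps27l and Rplp0 (0.60 and 0.42) at days 3, 4 and 5. A second Rplp0 probe set of similar brightness (101213_at) read 22854 at day 5, within its ES range of 21865 to 27607.

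The rest of the translation machinery was read from gene lists, in Sox1-positive against ES cells. Of 61 ribosome assembly genes tested 10 fell and 0 rose (16.4% lower, against 6.17% of all genes), 57 of the 61 differences were negative, and the median was -0.49. The largest falls called were those of Ppan (-1.29), a large-subunit assembly factor, Dkc1 (-1.15), the pseudouridine synthase, and Brix1 (-1.12), with limma adjusted p = 0.00455, 0.0283 and 0.0306. The count was 2 without ES 2, 2 without ES 3, 1 without day 4 and 3 without day 5, while the call of Ppan held in 18 of 18 alternatives.

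Of 12 genes of RNA polymerase I, which transcribes ribosomal RNA, 1 fell (8.33%, against 6.17% of all genes). It was Polr1b (-0.82, limma adjusted p = 0.0182), and the list's median was -0.48. Polr1b was not called without ES 2, ES 3, day 3 or day 4. Myc, a driver of these genes, fell from 158, 242 and 181 in ES cells to 46.7, 55.9 and 48.2 in Sox1-positive cells (-1.64, limma adjusted p = 0.00264). The Sox1-positive readings of Myc lay below the filter level of every chip (78.6, 117 and 102). Its difference ran from -1.90 to -1.16 over the alternatives, so its size is not well fixed. Any part of Myc in the falls of these lists was not tested. Akt1, a growth kinase, rose by 0.97 (limma adjusted p = 0.0158), but not without ES 2 or day 4. The other 10 of the 12 growth control genes tested did not pass. So 1 of the 12 was called lower (8.33%, against 6.17% of all genes) and 1 higher, where 6.4% of all genes were.

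Of 25 initiation factors 4 fell (16%, against 6.17% of all genes) and 0 rose, with a median of -0.33. They included Eif4ebp1 (-1.51), a repressor of the cap-binding protein, Eif1a (-1.28), a start site factor, and Eif2b3 (-1.10), with limma adjusted p = 0.00284, 0.00377 and 0.042; leaving out ES 1, ES 2, ES 3 or day 4 made the count 2. Among 70 mitochondrial ribosomal proteins 3 fell (4.29%, against 6.17% of all genes) and 1 rose, where 6.4% of all genes did. The median was -0.18. Mrps12 (-0.90), Mrpl15 (-0.85) and Mrpl17 (-0.70) were lower and Mrpl23 (1.09) higher (limma adjusted p = 0.0129, 0.03, 0.0399 and 0.00992); the number that fell was 1 when ES 2, day 3, day 4 or day 5 was left out.

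Of 17 elongation factors and other genes whose messenger RNAs carry the TOP motif, 0 changed by limma, where 12.6% of all genes did. The list's median was 0.01. In the E-cadherin-positive cells of day 2 their median stood at 0.25 above ES cells and in the Sox1-negative cells of day 3 at 0.26, beside 0.42 and 0.23 for the ribosomal proteins. The assembly genes had -0.06 and -0.09 in these sorts. The difference between these lists was not tested.

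**Figure D4:**
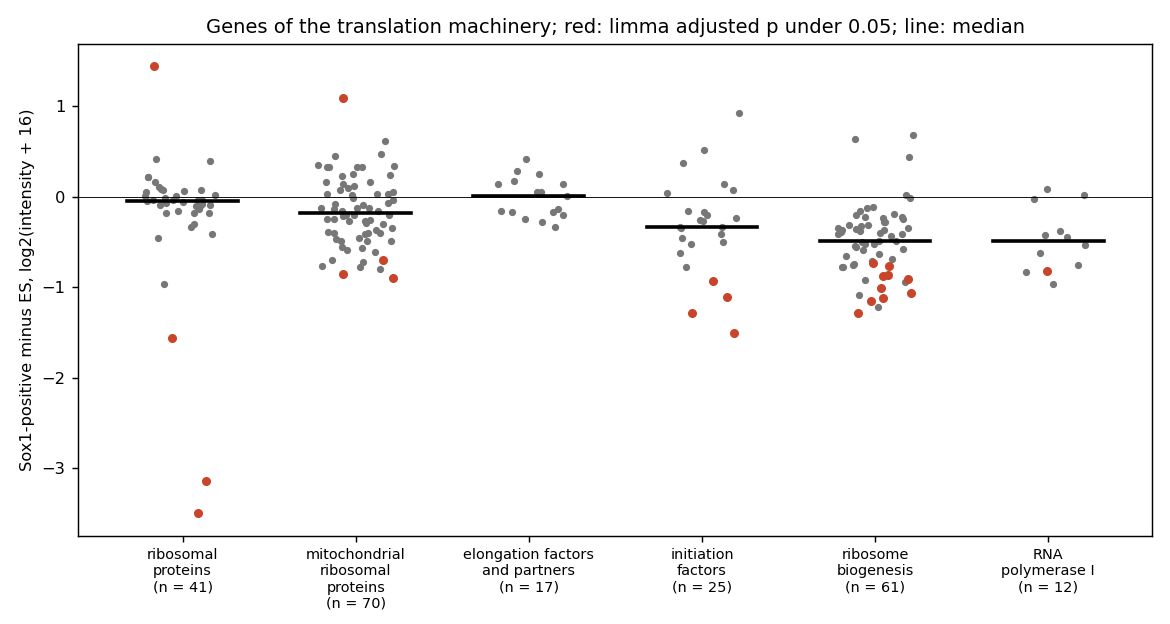
Each point is 1 gene, as the log2 difference of Sox1-positive (n = 3) from ES cells (n = 3), in 6 lists of the translation machinery; red marks limma adjusted p under 0.05 and lines are medians. The medians of ribosomal proteins (-0.05) and of elongation factors and partners (0.01) are near 0, and those of ribosome biogenesis (-0.49) and RNA polymerase I (-0.48) are lower.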

How the data were processed

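RNA of 10 samples was measured on 3 Affymetrix chips each. The deposited value is 1 linear intensity per probe set; which software and background correction the authors used is not given in the sources used here. Control probe sets were left out, and genes were named from the platform tables, where 0 symbols needed an update to RefSeq names.

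Values were taken as log2(intensity + 16). Probe sets with a mean intensity at or above the 30th percentile of their chip (78.6, 117 and 102) were tested, 25690 of 36701, with limma 3.58.1 in R 4.3.3 (lmFit and eBayes per chip), and p-values were adjusted by Benjamini-Hochberg across all chips. A gene is its probe set of highest mean log2 value. The code was tested on simulated data. Lone samples got no test. Figures used Python 3.11.15 and matplotlib 3.10.9.

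Members and lists were chosen with earlier results of these data known. Named were the stalk, 5S, paralog and partner genes, Rps6, Rps19, Rpl38, Rpsa and Rps27a, the called members (otherwise the 3 largest differences each way), the 6 genes with the largest gap between probe sets, and the 3 largest called changes per list. Alternatives changed scaling, pseudocount, filter, probe set choice, prior, adjustment, fit and samples.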

Additional observations from a re-analysis of the deposited data

How the results depend on the processing

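The 4 members called between Sox1-positive and ES cells became 2 with the mean over a gene's probe sets and 2 to 4 when 1 sample was left out. Under the probe sets with plain identifiers Rps4l was at 0.0593. The call against other aggregate cells (1 member) became 2 with a pseudocount of 64, a filter at the 60th percentile, the gene mean or a mean-variance trend, 3 with all 10 samples in 1 fit, and 0 to 3 without 1 sample. The 4 other aggregate samples against ES cells, and the slope on day, gave 0 members in all alternatives.

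Of 287 differences of a member in an aggregate sample from ES cells, 67 passed 0.5, 21 passed 1, and 50 to 77 passed 0.5 without 1 ES sample. The 11 members past 0.5 between the day 2 sorts were 7 after quantile normalization, 5 with plain identifiers and 5 past 1; the 11 of day 3 were 6 past 1.

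Quantile normalization gave medians of -0.0036 at day 1, 0.0488 and 0.0411 in the E-cadherin-positive and Sox1-negative cells, and 0.0011 and 0.0334 in Sox1-positive cells of days 3 and 4. Centring on array medians gave -0.0358 in E-cadherin-negative cells, plain identifiers 0.16 there, the gene mean 0.28 in E-cadherin-positive cells, and the filter at the 60th percentile -0.19 at day 1 and 0.30 in Sox1-negative cells. Without 1 ES sample the medians ranged from 0.32 to 0.38 in E-cadherin-positive and 0.20 to 0.36 in Sox1-negative cells.

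The 10 assembly genes that fell were 4 without a filter, 15 after centring, 18 with a pseudocount of 64, 19 with the higher filter, 20 with the trend and 1 to 8 without 1 sample. The mitochondrial count of 3 was 1 without a filter, 8 with the higher filter and 7 with the trend. The cause of these changes was not tested. No paired analysis was possible because the groups compared share fewer than 2 replicate numbers.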

Other observations

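A further 52 probe sets named a ribosomal protein gene together with other symbols, so they were not counted as members. Of them 46 passed the filter, and 0 changed between Sox1-positive and ES cells, against 2710 of the 25690 probe sets tested. The lowest limma adjusted p of the 46 was 0.092, with 2 at an unadjusted p under 0.05. Their differences ran from -1.50 to 0.50 with a median of 0.02. In the E-cadherin-positive cells of day 2 their median stood at 0.35 above the ES mean, and at 0.36 in the Sox1-negative cells of day 3, with 0.22 in the E-cadherin-negative cells of day 2 and 0.12, -0.11 and 0.01 in the Sox1-positive cells of days 3, 4 and 5. No difference between these sets was tested.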
